A study of Mus musculus with 2 samples.

Results

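Accessible chromatin at 9 genes of the EGR, NR4A and NFAT families was described in mouse mast cells with and without Dnmt3a, a de novo DNA methyltransferase. The genes were Egr1, Egr2, Egr3, Nr4a1, Nr4a2, Nr4a3, Nfatc1, Nfatc2 and Nfatc3, and a region belonged to a gene when that gene's interval was the nearest protein-coding interval on mm10, at most 100 kb away. Merging the peaks of both libraries gave 23364 regions in all, of which 28 belonged to these genes. They held 21 of 17170 wild-type peaks and 21 of 19684 knockout peaks. The material was ATAC-seq, in which the Tn5 transposase tags open DNA, of bone marrow-derived mast cells: 1 library from Dnmt3a-deleted mice (DNMT3A-KO) and 1 from their wild-type littermates. All mice were females of 3 to 4 weeks, and the marrow was kept for 4 weeks in interleukin 3 with no stimulus, to over 95% mast cells by surface staining per the labels. How Dnmt3a was deleted, and whether marrow was pooled, is not given in the sources used here. With 1 library per genotype no spread between animals was measured and no test was made, so each value describes these libraries. Intervals are exact (Clopper-Pearson) binomial 95% intervals and reflect counting alone.

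EGR proteins are zinc finger transcription factors and NR4A proteins are orphan nuclear receptors, and both sets of genes are immediate early genes that many cells switch on within minutes of a stimulus. NFAT proteins wait in the cytoplasm until calcium activates the phosphatase calcineurin, which lets them enter the nucleus. In mast cells, cross-linking of the IgE receptor raises calcium, and these factors then take part in switching on cytokine genes. Serum response factor, which binds the CArG box, and CREB, which binds the cAMP response element (TGACGTCA, with the core TGACG), are textbook activators of immediate early genes.

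The sequences below show where the peaks fell at transcription start sites that the 2 libraries marked differently, with 1 Egr2 start marked in both for comparison. Each line is the 250 bases before a start listed by RefSeq (GRCm38.p6, the assembly that mm10 names), read 5′ to 3′ along the gene, and capitals mark the bases under a peak of the library named. The Nr4a2 stretch is chr2:57124004-57124253 on the minus strand. The others are on the plus strand, at chr4:48045055-48045304 for Nr4a3, chr15:101266596-101266845 for Nr4a1, chr10:67537316-67537565 for the upstream Egr2 start and chr10:67537619-67537868 for the downstream Egr2 start. Upstream and downstream set these Egr2 starts apart from each other, and another listed start, at 67535499, lies upstream of both.
Nr4a2 in the knockout: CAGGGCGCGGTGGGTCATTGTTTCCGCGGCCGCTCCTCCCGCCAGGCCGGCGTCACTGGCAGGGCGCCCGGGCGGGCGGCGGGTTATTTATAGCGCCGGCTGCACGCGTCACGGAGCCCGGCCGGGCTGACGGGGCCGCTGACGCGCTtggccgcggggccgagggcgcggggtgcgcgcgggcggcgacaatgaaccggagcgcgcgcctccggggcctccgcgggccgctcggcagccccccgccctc
Nr4a3 in the wild type: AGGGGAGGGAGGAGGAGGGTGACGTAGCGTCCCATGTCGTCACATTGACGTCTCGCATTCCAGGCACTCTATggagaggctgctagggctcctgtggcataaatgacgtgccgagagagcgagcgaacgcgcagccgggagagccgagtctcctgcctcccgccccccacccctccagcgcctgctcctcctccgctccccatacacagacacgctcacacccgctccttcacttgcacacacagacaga
Nr4a1 in the wild type: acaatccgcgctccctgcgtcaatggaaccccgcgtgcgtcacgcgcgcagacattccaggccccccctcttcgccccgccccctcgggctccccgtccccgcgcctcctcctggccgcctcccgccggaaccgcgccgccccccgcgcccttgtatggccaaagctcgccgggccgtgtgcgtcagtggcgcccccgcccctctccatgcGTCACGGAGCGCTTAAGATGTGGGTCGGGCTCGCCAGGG
Nr4a1 in the knockout: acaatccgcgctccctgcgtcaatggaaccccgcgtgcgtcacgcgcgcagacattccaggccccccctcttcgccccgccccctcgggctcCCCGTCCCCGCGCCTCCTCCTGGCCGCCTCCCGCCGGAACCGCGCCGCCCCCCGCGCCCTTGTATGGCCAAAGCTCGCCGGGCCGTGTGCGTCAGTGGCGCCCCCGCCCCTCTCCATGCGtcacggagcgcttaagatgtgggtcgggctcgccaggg
Egr2 upstream start in the wild type: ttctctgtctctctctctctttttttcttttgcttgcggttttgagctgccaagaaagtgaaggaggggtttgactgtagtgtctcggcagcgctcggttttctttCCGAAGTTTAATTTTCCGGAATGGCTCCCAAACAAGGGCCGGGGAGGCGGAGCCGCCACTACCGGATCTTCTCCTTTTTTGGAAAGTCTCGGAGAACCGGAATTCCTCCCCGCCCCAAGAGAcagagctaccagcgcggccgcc
Egr2 downstream start in the wild type: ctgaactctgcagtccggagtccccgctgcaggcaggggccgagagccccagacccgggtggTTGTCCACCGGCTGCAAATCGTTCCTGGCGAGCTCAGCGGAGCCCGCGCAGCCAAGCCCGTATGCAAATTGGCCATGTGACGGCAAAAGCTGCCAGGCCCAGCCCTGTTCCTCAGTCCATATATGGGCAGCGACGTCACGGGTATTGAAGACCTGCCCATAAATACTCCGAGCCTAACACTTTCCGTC

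The 9 genes had as many peaks in one library as in the other. Of their 28 regions, 14 were shared by both lists, 7 were wild-type-only and 7 were knockout-only. In percent these are 50.0% shared (interval 30.7 to 69.4), 25.0% wild-type-only (10.7 to 44.9) and 25.0% knockout-only (10.7 to 44.9), against 55.1%, 16.9% and 28.0% of all regions, so none of the 3 shares stood apart from its background by more than counting error. Among unshared regions, 50.0% were knockout-only (7 of 14, interval 23.0 to 77.0), and over the whole series 62.3% were. In the order shared, wild-type-only and knockout-only, the EGR genes had 3, 2 and 3 regions, the NR4A genes 3, 1 and 0, and the NFAT genes 8, 4 and 4. At least 1 region was found for 8 of the 9 genes, and for 53.7% of all 21631 protein-coding genes. Nfatc1 had 8 regions and Nfatc2 had 7. Only 1.40% of all genes had 7 or more, but both genes are long (107 and 125 kb), and counts were not scaled to length. Absence of a peak means that coverage did not pass the authors' peak call, not that the site was closed.

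**Figure D1:**
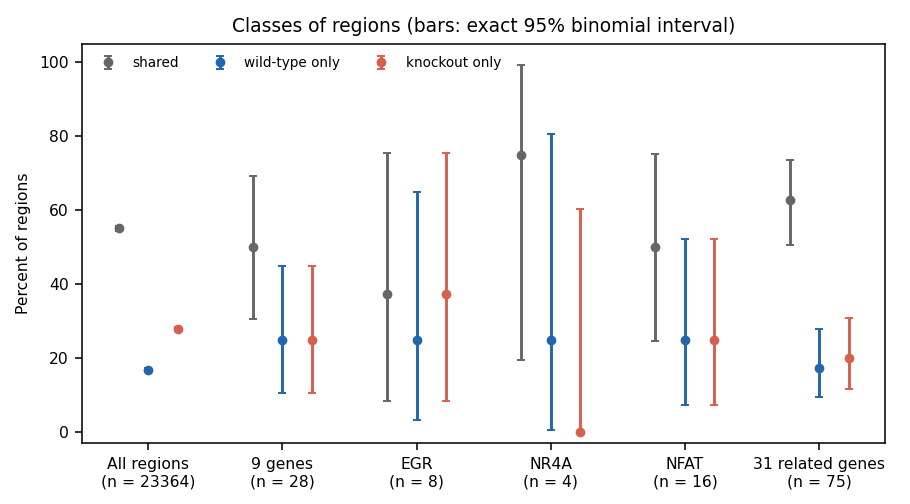
Percent of regions that were shared (grey), wild-type-only (blue) or knockout-only (red) for all regions, the 9 genes, each family and 31 related genes; points are shares, bars exact 95% binomial intervals and n the number of regions. The bars of the 9 genes span the shares of all regions, 55.1%, 16.9% and 28.0%.

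The map of summits shows where the peaks lay. Of the 28 regions 18 overlapped their gene and 10 lay outside it, from 242 bp to 7.32 kb away, so no region was near the 100 kb limit. Within 1 kb of a gene end were 14.3% (4 of 28, interval 4.03 to 32.7), against 35.7% of all regions. Widening the gene end to 2.5 kb raised this to 32.1% (9 of 28), against 41.5% of all regions. With ends of 1 kb, 57.1% lay inside a gene (16 of 28, interval 37.2 to 75.5), against 38.1% of all regions. Between genes lay 4 of 7 knockout-only regions (interval 18.4 to 90.1) and 0 of 7 wild-type-only regions (0 to 41.0). The shares over all such regions, 30.3% and 30.9%, are inside these intervals. With ends of 2.5 kb the counts between genes were 2 and 0. Gene ends are those of the gene interval, not start sites. Regions at listed starts within an interval, as at Egr2 and Nr4a1, counted as inside the gene at both limits. Further regions lay within 100 kb of these genes but nearer to another gene, 8 at Egr3, 7 each at Nr4a1 and Nfatc3, 5 each at Egr1 and Nr4a2, 4 at Egr2, 1 each at Nr4a3 and Nfatc1 and 0 at Nfatc2.

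**Figure D2:**
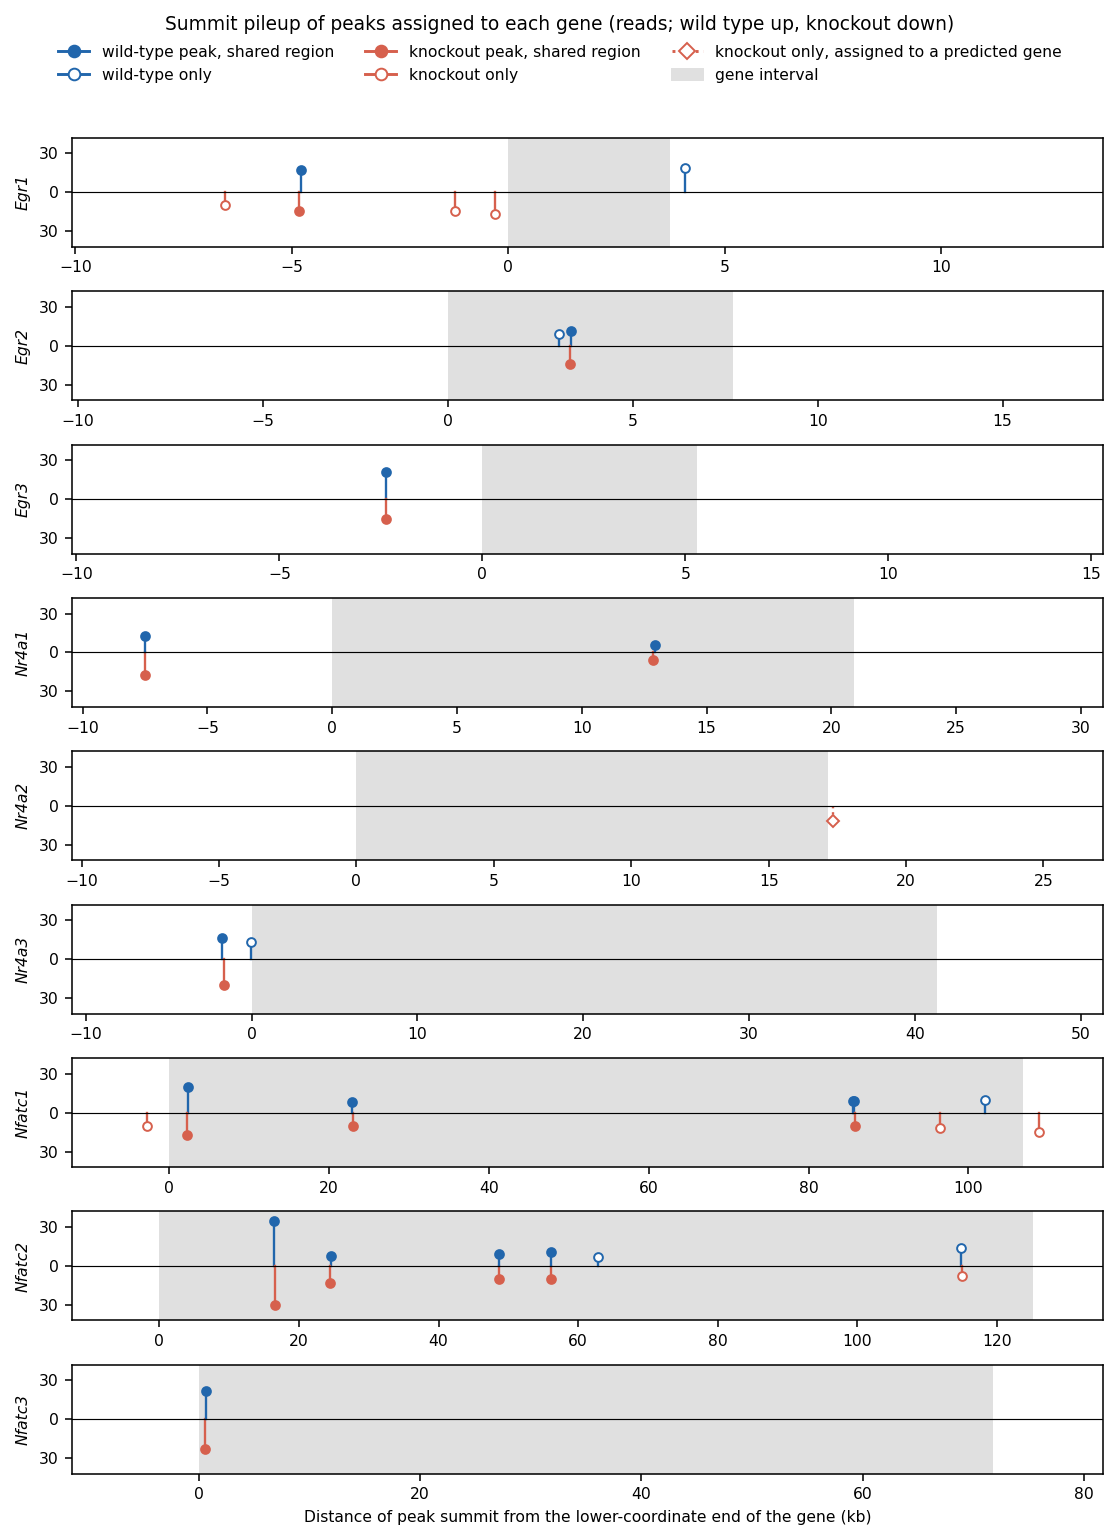
Summit pileup (overlapping reads at the highest point of a peak; wild type upward in blue, knockout downward in red) against distance in kb from the lower-coordinate end of each gene, whose interval is shaded grey. Filled points belong to shared regions and open points to unshared ones; the diamond at Nr4a2 is a knockout peak of 12 reads that the nearest-gene rule gave to a predicted gene.

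Egr1, the best known immediate early zinc finger gene (chromosome 18, 34861207 to 34864956), had 5 regions, of which 1 was in both lists, 3 in the knockout list alone and 1 in the wild-type list alone. Both libraries had a peak 4.7 kb below the gene, at 34856352 to 34856488 in the wild type and 34856310 to 34856438 in the knockout, with summit pileups (reads overlapping at the highest point) of 17 and 14. Pileups were not scaled to library depth. The knockout list alone held peaks at 34854604 to 34854706, 34859955 to 34860054 and 34860813 to 34860954, with pileups of 10, 14 and 17. The wild-type list alone held a peak at 34865199 to 34865355, 242 bp above the gene, with a pileup of 19. None of these unshared peaks had a peak of the other library within 1.6 kb. All of them were weak by the authors' −log10 q, from 4.28 to 6.65, while the median of all wild-type peaks was 8.49 and of all knockout peaks 8.89. Their pileups were not low, since the median over either whole list was 9. The local background that the peak caller weighed them against was high at 3 of the 4: 3.74 reads at the wild-type-only peak, where only 7 wild-type peaks of the whole list had more, and 2.43 and 2.96 at the knockout-only peaks nearest to the gene, where 41 and 15 knockout peaks had more. At the fourth, the knockout-only peak farthest from the gene (34854604 to 34854706), it was 0.65, and 2594 knockout peaks had more. Over the whole lists the median background was 0.28 for wild-type peaks and 0.27 for knockout peaks. The part of background in which Egr1 peaks were called was not tested.

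Egr2 (chromosome 10, 67534469 to 67542188), a zinc finger gene related to Egr1, had 2 regions around its cluster of start sites. The shared one ran from 67537681 to 67537880 in the wild type and from 67537684 to 67537872 in the knockout, 200 and 189 bp wide, with pileups of 11 and 14. It covered the start at 67537869 in both libraries. The wild-type summit, at 67537797, fell on the first base of a CArG box 72 bases before that start, and the knockout summit lay 21 bp further upstream. A second CArG box, at 67537494 to 67537503, lay under a wild-type-only peak (67537422 to 67537543, pileup 9, −log10 q 5.22) that ended 23 bp before the start at 67537566. The most upstream listed start, at 67535499, had no peak in its window in either library. A CArG box was found in 1.63% of the 32851 RefSeq promoter windows, each of 250 bases before and 50 after a start, on either strand. The second box shares 2 bases with a GGAAA match. The wild-type-only peak was 140 bp from the knockout peak. Egr3 (chromosome 14, 70077317 to 70082613), another zinc finger gene of the family, had 1 region, shared, 2233 bp below the gene. Its wild-type peak was 204 bp wide with a pileup of 21 and its knockout peak 222 bp wide with a pileup of 15, and their summits were 6 bp apart, the closest among these genes.

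At the starts of Nr4a2 and Nr4a3 a peak was in 1 list only, while the peaks at the Nr4a1 start count as shared. Peaks of 1 list only also lay near starts of Egr2 and Nfatc2. At Nr4a2 (chromosome 2, 57106830 to 57124003), which encodes the receptor Nurr1, the knockout list held a peak at 57124106 to 57124271 and the nearest wild-type peak was 57.5 kb away. The peak was 166 bp wide, with a pileup of 12 reads over a background of 0.24, a fold of 10.5 and a −log10 q of 14.1. It ranked 123 among the 6541 knockout-only peaks by −log10 q. It covered positions 103 to 268 before the Nr4a2 start, and 148 of its bases lie in the sequence printed above. The nearest-gene rule did not give this region to Nr4a2, so it is not among the 28: the peak also lies inside LOC105244150 (57123334 to 57124694), a predicted protein-coding gene that overlaps Nr4a2 by 670 bp. Nr4a2 therefore counts as the only one of the 9 genes with no region, although a peak lies 102 bp from it. Assignment to genes with a curated RefSeq transcript, chosen after the data were seen, or to gene bodies with 10 kb on each side, gave Nr4a2 1 knockout-only region.

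At Nr4a3 (chromosome 4, 48045078 to 48086447), which encodes Nor1, the difference ran the other way. A wild-type-only peak at 48045026 to 48045126 covered the lower end of the gene interval, with a pileup of 13 and a −log10 q of 7.24, and it ended 179 bases before the listed start. The knockout list had no peak within 1.5 kb of it. Both libraries had a peak further upstream, 385 bp wide in the wild type (48043071 to 48043455) and 383 bp wide in the knockout (48043125 to 48043507), with pileups of 16 and 20. These were the widest peaks of the 9 genes in either library.

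Nr4a1 (chromosome 15, 101253902 to 101274795), which encodes Nur77, had 2 regions that count as shared. At its start the knockout peak covered positions 158 to 39 before the start (101266688 to 101266807) and the wild-type peak ran from 39 before it to 60 after it (101266807 to 101266906). They had exactly 1 base in common, as did 4 of the 12299 shared regions with 1 peak from each library. Both peaks had a pileup of 6 reads, the fewest among these genes, and their summits were 89 bp apart. The other Nr4a1 region, 7.32 kb below the gene, was stronger and alike in position, with pileups of 13 and 17, widths of 245 and 263 bp and summits 17 bp apart.

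**Figure D3:**
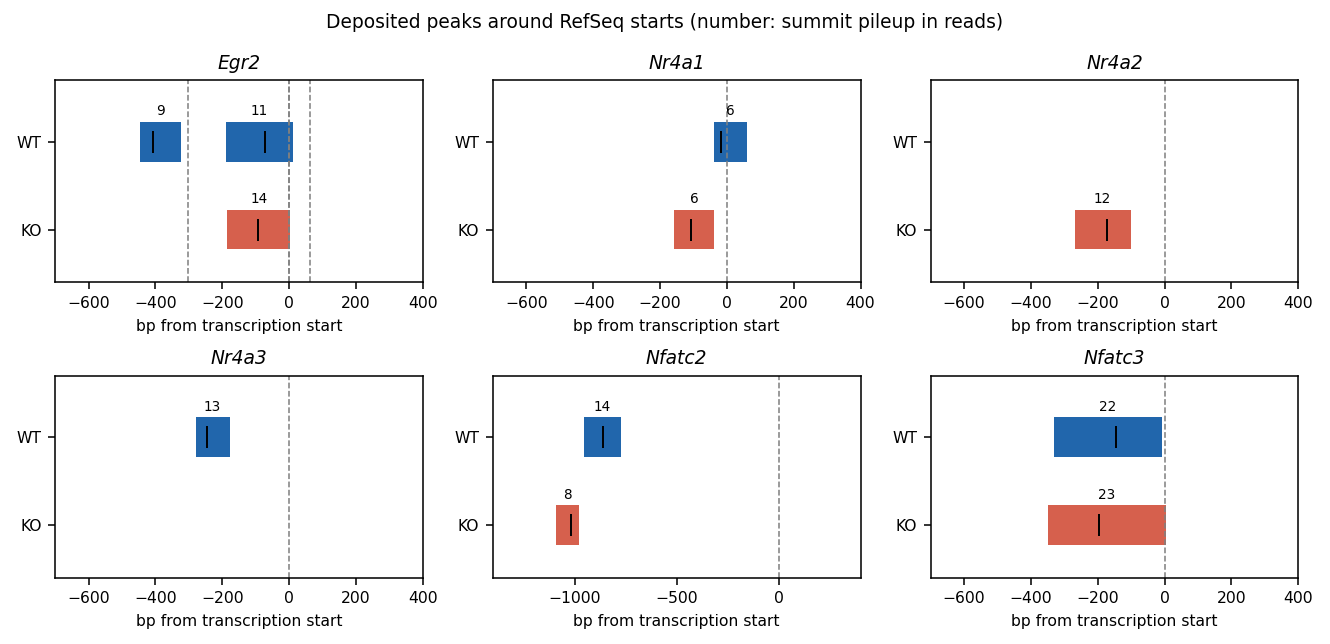
Deposited peaks (bars), summits (ticks) and summit pileups (numbers) of the wild-type (blue) and knockout (red) libraries, by distance in bp from a RefSeq start in the direction of transcription; dashed lines are listed starts. Nr4a2 shows a knockout peak only, Nr4a3 a wild-type peak only, the Nr4a1 peaks meet at 39 bp before the start, and Nfatc2 is drawn from its internal start.

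The NR4A starts shared a sequence feature, looked for after the peaks were seen. Each of the 3 windows held 4 matches to TGACG on either strand, which 0.231% of all 32851 windows held 4 times or more and 20.8% held at least once. The limit of 4 is the count seen in these 3 windows, and the other windows were not matched to them in base composition. At Nr4a2 all 4 lay wholly under the knockout peak, and at Nr4a3 3 of 4 lay wholly under the wild-type peak. At Nr4a1 1 of 4 lay wholly under the knockout peak and 1, at 101266806 to 101266810, straddled the base where the peaks meet. The Egr2 window of the start at 67537869 held 2, both under the peaks of both libraries, and the Nfatc2 windows held none. The Nfatc3 window of the start at 106058818 held 1, under no peak of either library. The whole element TGACGTCA (which contains TGACG) was in 1.79% of all windows and in no window of these genes. Other motifs searched were the EGR sites GCGTGGGCG (0.612% of windows) and GCGGGGGCG (2.91%), the NR4A site AAAGGTCA (1.51%) and the NFAT core GGAAA (61.3%). Of the first 3, the windows held 1 match, GCGGGGGCG under the Nr4a1 knockout peak.

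Start windows were listed for 6 of the 9 genes. A wild-type peak overlapped a window of Egr2, Nr4a1, Nr4a3 and Nfatc3, and a knockout peak a window of Egr2, Nr4a1, Nr4a2 and Nfatc3. Among all 27025 listed genes, 22.3% had a window under a wild-type peak and 23.8% under a knockout peak. A window under a wild-type peak only, as at Nr4a3, was found for 2.52% of genes, and under a knockout peak only, as at Nr4a2, for 4.02%.

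Nfatc1 (chromosome 18, 80606205 to 80713071), an NFAT gene whose own product acts on its expression in lymphocytes, had 3 regions in both lists, 2 in the wild-type list alone and 3 in the knockout list alone. The shared ones lay inside the gene. The first ran from 80608319 to 80608620, with a wild-type pileup of 20 and a knockout pileup of 17, and was 302 bp wide in the wild type and 202 bp in the knockout. The second (80629035 to 80629258) had pileups of 8 and 10, and the third (80691858 to 80692062) 9 and 10. The knockout-only regions included the 2 with the highest −log10 q among the unshared ones of the 28. The Nr4a2 peak (−log10 q 14.1) is outside the 28, and unshared Egr1 peaks had higher pileups, up to 19. A peak at 80714985 to 80715143, 1913 bp above the gene, had a pileup of 15 and a −log10 q of 14.2, and ranked 113 among 6541 knockout-only peaks. The peak at 80702545 to 80702697, which lies within the gene, had a pileup of 12 and a −log10 q of 12.5, and ranked 241. The third, at 80603338 to 80603467 below the gene, had a pileup of 10. The wild-type-only peaks were at 80708165 to 80708324, with a pileup of 10, and at 80691654 to 80691795, with a pileup of 9. The former lay between the knockout-only ones, 5.47 kb from the nearer, and the latter was 97 bp from a knockout peak of the third shared region. Above the third shared region the 2 libraries thus had no peak in common near the gene.

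Nfatc2 (chromosome 2, 168476410 to 168601657), which encodes NFAT1, the form that resting immune cells hold ready, carried the strongest region of all 9 genes. It lay inside the gene at 168492734 to 168493098, where the wild-type peak had a pileup of 35 and a −log10 q of 35.2, above 99.6% of wild-type peaks. The knockout peak there had a pileup of 30 and a −log10 q of 31.5, above 98.4% of knockout peaks. Their summits were 27 bp apart. The other 3 shared regions lay between 168500832 and 168532642, with wild-type pileups of 8 to 11 and knockout pileups of 10 to 13. Both libraries had a peak upstream of the internal start at 168590365, but not at the same bases: the wild-type peak covered 776 to 954 bases before it (168591141 to 168591319, pileup 14) and the knockout peak 982 to 1092 (168591347 to 168591457, pileup 8). The gap between them was 27 bp and their summits were 157 bp apart, so they count as 1 wild-type-only and 1 knockout-only region and become 1 shared region when summits within 200 bp are matched. A further wild-type-only peak at 168539180 to 168539377 had a pileup of 7 and lay 6.54 kb from any knockout peak. Neither library had a peak in the windows of the internal or the outer start.

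Nfatc3 (chromosome 8, 106058818 to 106130537), another calcium-regulated NFAT gene, had 1 region, which was strong and shared. The wild-type peak ran from 106059258 to 106059581 and ended 9 bases before the listed start at 106059590. The knockout peak ran from 106059241 to 106059593 and covered that start. The peaks were 324 and 353 bp wide, with pileups of 22 and 23, and their summits were 51 bp apart.

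**Figure D4:**
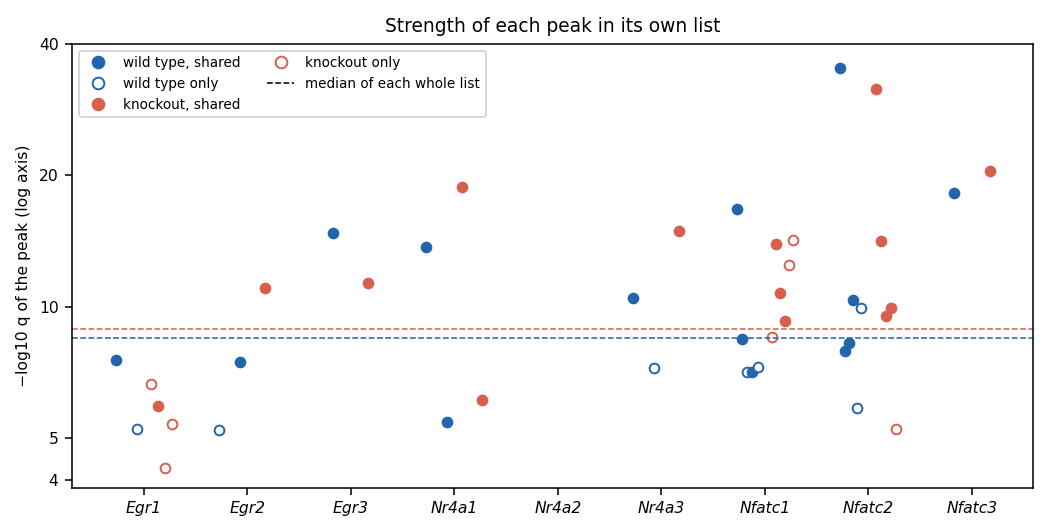
The authors' −log10 q of each peak (log axis) by gene, wild type blue and knockout red; filled points are peaks of shared regions, open points unshared peaks, and dashed lines the medians of the whole lists, 8.49 and 8.89. Nfatc2 carries the highest peak of each library, Egr1 the lowest of the knockout (4.28) and Egr2 the lowest of the wild type (5.22), and Nr4a2 has none by the nearest-gene rule.

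Unshared peaks of these genes were mostly below their list's median −log10 q (6 of 7 wild-type-only and 5 of 7 knockout-only peaks). So were unshared peaks in general: over the whole series their median −log10 q was 6.08 (wild-type-only) and 6.48 (knockout-only). At these genes it was 7.09 and 6.65. The 7 wild-type-only peaks ranged from 101 to 198 bp in width (median 157) and from 7 to 19 in pileup (median 10). The 7 knockout-only peaks ranged from 100 to 159 bp (median 130) and from 8 to 17 in pileup (median 12). Over the whole series unshared peaks had a median pileup of 6 in both lists and median widths of 108 and 114 bp. Peaks of shared regions were wider, with medians of 204.5 and 217.5 bp at these genes and 171 and 186 bp in all. A −log10 q of at least 10 was reached by 0 wild-type-only and 2 knockout-only peaks here, both at Nfatc1, and by 234 of 3952 and 700 of 6541 in all. The knockout-only peak at the Nr4a2 start, given to another gene, is not counted here. A summit of the other library lay within 1 kb of 3 of 7 wild-type-only peaks (42.9%, interval 9.90 to 81.6), at Egr2, Nfatc1 and Nfatc2, and of 1 of 7 knockout-only peaks (14.3%, interval 0.361 to 57.9), at Nfatc2. The shares over all wild-type-only and all knockout-only peaks were 18.8% and 12.0%, inside these intervals.

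Within shared regions, width and position varied in both directions. All 14 shared regions held 1 peak from each library. The knockout peak was the wider in 8 of 14, against 56.7% of 12299 such regions in all. The difference in width, knockout minus wild type, ran from -100 bp at the first shared Nfatc1 region to 102 bp at Nfatc2 (168524892 to 168525101, where the wild-type peak was 108 bp and the knockout peak 210 bp). Its median was 18 bp, against 9 bp in all. Summits lay 6 to 91 bp apart, with a median of 31 bp (order-statistic 95% interval 17 to 86), against 28 bp in all. Over all peaks of the 9 genes the median width was 179 bp for the wild-type library and 189 bp for the knockout, and the bases covered were 4150 and 4135. The medians of the whole lists were 150 and 154 bp.

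**Figure D5:**
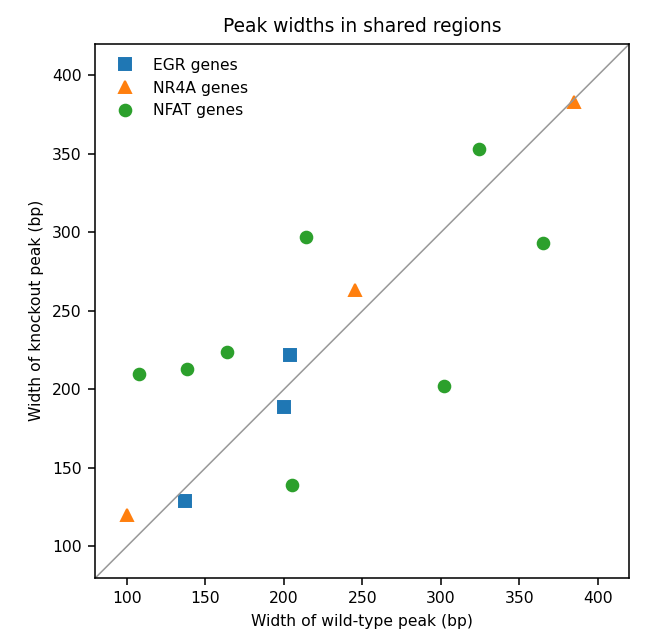
Width in bp of the knockout peak against that of the wild-type peak in the 14 shared regions, by family; the line marks equal widths. The knockout peak is wider in 8 regions and the wild-type peak in 6, and the NFAT regions lie farthest from the line on both sides.

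Regions of related genes were counted in the same way. For 31 genes of the calcineurin pathway, the EGR corepressors, upstream factors and co-induced early genes, 47 of 75 regions were shared (62.7%, interval 50.7 to 73.6), 13 were wild-type-only and 15 knockout-only. That interval includes the 55.1% of all regions and starts just above the 50.0% of the 9 genes, whose own interval overlaps it. In each library 26 of the 31 genes had a region. Counted in either list it was 27 of 31, beside 53.7% of all genes, and counts were not scaled to gene length. Inhibitors of calcineurin or NFAT had 12, 0 and 2 regions in the order shared, wild-type-only and knockout-only, with 3 shared and no other at Rcan1, the feedback inhibitor of calcineurin. Calcineurin subunits had 7, 5 and 2. Among them Ppp3ca, a catalytic subunit gene, had 5, 2 and 2, and Ppp3cb, another, had 1, 2 and 0. The EGR corepressors had 0, 2 and 3, with 0, 1 and 2 at Nab2. Co-induced early genes had 16, 3 and 4, with 3, 0 and 2 at Jun, and upstream factors 11, 2 and 3, with 1, 0 and 2 at Elk3, a partner of serum response factor. The remaining family members had 1, 1 and 1. Egr4 had no region, Nfatc4 1 knockout-only region, and Nfat5 1 shared and 1 wild-type-only region. The shared percent was 85.7% for the inhibitors (interval 57.2 to 98.2) and 0% for the corepressors (interval 0 to 52.2). Intervals of the other subgroups include the 55.1% of all regions. Subgroups had 3 to 23 regions each, and differences between them were not tested.

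The labelled cell type was checked against marker genes. Regions were found at 10 of 12 mast cell genes in the wild-type list and at 12 of 12 in the knockout list. Hdc and Slc18a2 had theirs in the knockout list only. For other cell types, in the same order, 3 and 2 of 4 basophil genes had one, 2 and 1 of 6 neutrophil genes, 2 and 2 of 5 macrophage genes, 0 and 1 of 5 B cell genes, 1 and 1 of 5 T cell genes, and 2 and 3 of 4 erythroid genes. Of the basophil genes, Cd200r3 had 6 shared regions, Itga2 1 wild-type-only and 3 knockout-only, Prss34 1 wild-type-only and Mcpt8 none in either list. Of the neutrophil genes, Ltf had 1 shared region and Csf3r 1 wild-type-only region. Elane, Mpo, Ly6g and Camp had none in either list. Counted in either list, a region was found at 12 of 12 mast cell, 3 of 4 basophil, 2 of 6 neutrophil, 3 of 5 macrophage, 1 of 5 B cell, 1 of 5 T cell and 3 of 4 erythroid genes, beside 53.7% of all genes. The basophil, macrophage and erythroid shares were thus also above that of all genes. At Dnmt3a itself (chromosome 12) the wild-type list had 6 peaks and the knockout list 5. One of the wild-type-only peaks there, at 3897094 to 3897359, had a −log10 q of 21.8, the highest of all 3952 wild-type-only peaks. Which part of the gene was deleted is not given in the sources used here. The part of any other cells in the regions above was not tested.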

How the data were processed

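ATAC-seq libraries of 1 wild-type and 1 Dnmt3a knockout culture were analysed, sequenced as 50 bp single reads to 10 M reads per the labels' protocols. The submitters' processing notes name Trimmomatic, Bowtie2, MACS2 and the build mm10 (GRCm38), with no versions or settings. Whether reads were shifted to the Tn5 cut site is not stated there, and a shift would move peak edges by a few bases. Peaks were deposited as 1 list per library, and each carries the authors' score (10 times the −log10 q, cut to a whole number), fold (a ratio of summit to local background), −log10 p-value and −log10 q-value. These values rank peaks within their own list only.

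Summit pileup and local background were solved from the deposited fold and −log10 p as a Poisson tail with a pseudocount of 1, which gave a whole number for 100% of peaks (tolerance 0.001 in −log10 p). Neither was scaled to library depth, so pileups of the 2 libraries are not on a common scale. Peaks sharing at least 1 bp were merged. Gene intervals, given without exons, and promoter windows came from RefSeq tables of GRCm38.p6, in which 9 and 6 of the 9 genes were found. Python 3.11.15, pandas 2.3.3, NumPy 2.4.6 and SciPy 1.17.1 were used, and the steps were tested on simulated data. All 9 genes are named, and of the 31 related genes those with at least 2 unshared regions of one kind. Rcan1, Egr4, Nfatc4 and Nfat5 were added after their values were seen. The genes, lists and rules were chosen with earlier results of these data known, and the motifs after the peaks were seen. Alternatives were stricter limits on −log10 q (at least 5, for every peak or for unshared regions alone), lists cut to equal length, 50% reciprocal overlap, summit matching within 200 bp, other gene windows or gene types, wider gene ends (2.5 kb) and, chosen after the data were seen, curated transcripts.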

Additional observations from a re-analysis of the deposited data

How the results depend on the processing

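No paired analysis was possible because there was a single library for each genotype and no result comes from a test. Over 10 alternative settings and 46 recomputed values, every count stayed within 1.5 times, and every median or share inside the interval, of the value reported. Some of these values could not change. No region was near the alternative window of 50 kb, and a limit on unshared regions alone leaves shared ones untouched. The number of shared regions ranged from 13 to 16, of wild-type-only regions from 6 to 8 and of knockout-only regions from 5 to 8. The median width ranged from 164 to 179 bp in the wild type and from 177.5 to 202 bp in the knockout, and the median summit distance stayed at 31 bp. The share within a gene end rose from 14.3% to 32.1% with ends of 2.5 kb, just inside the upper bound of 32.7%. With counts this small, single genes still changed. A reciprocal overlap of 50% turned the shared region at the Nr4a1 start into 1 wild-type-only and 1 knockout-only region. Equal numbers of peaks removed the Nfatc2 knockout-only region and 1 at Egr1, which then had 2, as it had with a −log10 q of at least 5. Assignment to genes of all types gave the knockout-only regions at 34854604 (Egr1) and 80603338 (Nfatc1) to non-coding genes. Pileups of 6 to 35 fragments limit every call.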
